A study of Mus musculus with 4 samples.

Results

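The genes described here carry glutamate across membranes or interconvert it with glutamine: the vesicular transporters Slc17a6, Slc17a7 and Slc17a8, the plasma membrane transporters Slc1a1, Slc1a2, Slc1a3 and Slc1a6, the glutaminase gene Gls2 and the glutamine synthetase gene Glul. They were chosen by function, with earlier results of these data known, by matching the symbol in each row name to this list. All 9 were found among the 55487 genes of the table. RNA was measured in neuronal nuclei of adult wild-type mice, taken from whole brain without the olfactory bulb and separated by fluorescence-activated sorting into excitatory nuclei (2 libraries) and inhibitory nuclei (2 libraries), all labelled as batch 1. The sources used here give neither the sorting markers nor the animals behind each library. The p-values below therefore measure the spread between the libraries at hand, which may be technical. Values are TPM, transcript abundances divided by transcript length and scaled to the same total in each library.

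Glutamate is loaded into synaptic vesicles by the vesicular transporters, released, and taken up from the synaptic cleft by sodium-coupled transporters of the Slc1a family, most of it into astrocytes. Astrocytes turn it into glutamine with glutamine synthetase, and neurons take the glutamine back and make glutamate from it with glutaminase. Slc17a7 (VGLUT1) is typical of cortex, hippocampus and cerebellar granule cells, Slc17a6 (VGLUT2) of thalamus, hypothalamus and brainstem, and Slc17a8 (VGLUT3) of scattered neurons that also use another transmitter.

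All 9 genes passed the filter of at least 1 TPM in at least 2 libraries. Slc17a7 and Slc1a2 were higher in excitatory nuclei, Slc17a6 and Slc1a6 were higher in inhibitory nuclei, and Slc17a8, Slc1a1, Slc1a3, Gls2 and Glul were not called (limma, Benjamini-Hochberg adjusted p under 0.05 over all 26055 genes tested). This is 4 of 9 genes, against 12.0% of all genes tested (5.43% toward excitatory and 6.62% toward inhibitory nuclei). The groups did not overlap for 7 of the 9 genes, against 56.2% of all genes tested: the excitatory libraries stood higher for 4 (23.0% of all genes) and the inhibitory ones for 3 (33.3%). The median log2 fold change was -0.02 over the 9 genes and -0.07 over all genes tested. A log2 fold change here is the mean log2(TPM + 1) of excitatory libraries minus that of inhibitory ones, ± its standard error, which understates the change of low genes. Leaving out either excitatory or either inhibitory replicate while testing the same genes, limma called 0 genes of any kind, and 5311 to 5812 genes had an unadjusted p under 0.05. In these fits the adjusted p of Slc17a6, Slc17a7 and Slc1a2 lay between 0.0545 and 0.0673 and that of Slc1a6 between 0.0638 and 0.0815. When the filter was applied again to the 3 remaining libraries, all 4 genes were called in each fit, with adjusted p between 3.44e-04 and 0.0130. Each fit on 3 libraries has 1 library in a group, assumed to vary like the other group, and 1 residual degree of freedom, so its adjusted p depends on the prior variance and is no separate support for a call.

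**Figure D1:**
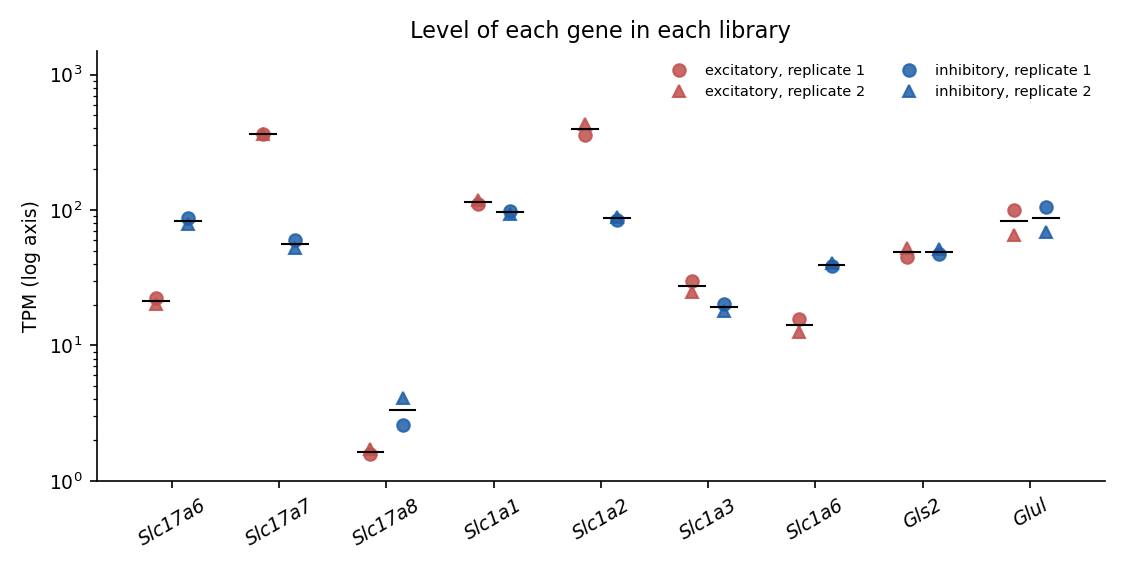
TPM (log axis) of each of the 9 genes in the 4 libraries, with circles for replicate 1, triangles for replicate 2 and a black bar for the group mean. Slc17a7 and Slc1a2 stood between 359 and 430 TPM in the excitatory libraries, and Glul split by replicate number rather than by group.

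**Figure D2:**
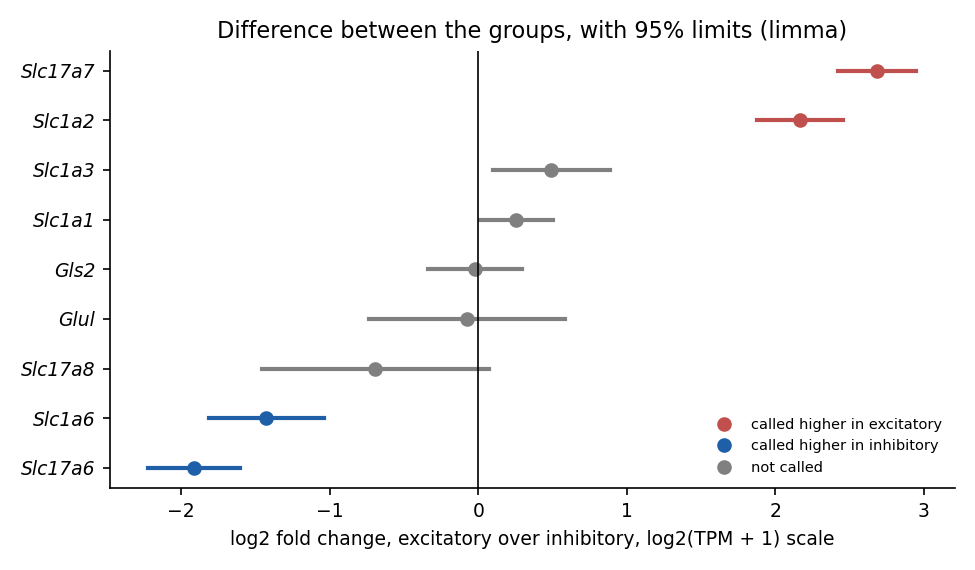
Log2 fold change of each gene, as a difference of mean log2(TPM + 1), excitatory minus inhibitory, with 95% limits from limma that are not adjusted for the number of genes. Slc17a7 and Slc1a2 lie to the right, Slc17a6 and Slc1a6 to the left, and the limits of Gls2, Glul and Slc17a8 include 0.

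Markers of excitatory forebrain neurons and of GABA neurons followed the labels. Of 8 markers of excitatory forebrain neurons, 8 were higher in excitatory nuclei, and of 11 tested markers of GABA neurons, 10 were higher in inhibitory nuclei. In inhibitory nuclei the excitatory forebrain markers stood at a median of 18.0% of their excitatory level, and at most at 35.3% (Camk2a). Neuron markers of other regions were higher in inhibitory nuclei for 5 of 6 thalamic, 6 of 6 Purkinje and 6 of 6 cerebellar granule cell genes. Thalamic relay neurons and granule cells use glutamate, so their markers went against the labels of the libraries. Glial transcripts were present in all 4 libraries, with summed levels of 192.5 to 266 TPM for 11 astrocyte markers and 274 to 434 TPM for 10 oligodendrocyte markers, and 4 endothelial markers were under 1 TPM in every library. In such bulk samples, fewer cells of a type and less RNA per cell cannot be told apart.

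The start regions of 3 of the genes that differed are shown because these genes went in opposite directions: Slc17a7 toward excitatory nuclei, and Slc17a6 and Slc1a6 toward inhibitory nuclei. Each is the 250 bases before a RefSeq start site (GRCm38.p6, the assembly behind mm10). It is read 5′ to 3′ on the plus strand, on which all 3 genes lie. Slc17a7 is at chr7:45163671-45163920, Slc17a6 at chr7:51621580-51621829 and Slc1a6 at chr10:78780246-78780495, none of them overlapping an annotated exon of these genes. Capitals mark the GC box GGGCGG on either strand and, in Slc1a6, the EGR1 motif GCGNGGGCG, which overlaps a GC box.
Slc17a7: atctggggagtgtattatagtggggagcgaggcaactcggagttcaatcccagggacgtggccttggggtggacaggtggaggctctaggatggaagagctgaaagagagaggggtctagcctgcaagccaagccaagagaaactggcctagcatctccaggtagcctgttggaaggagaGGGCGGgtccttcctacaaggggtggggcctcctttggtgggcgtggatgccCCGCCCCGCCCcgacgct
Slc17a6: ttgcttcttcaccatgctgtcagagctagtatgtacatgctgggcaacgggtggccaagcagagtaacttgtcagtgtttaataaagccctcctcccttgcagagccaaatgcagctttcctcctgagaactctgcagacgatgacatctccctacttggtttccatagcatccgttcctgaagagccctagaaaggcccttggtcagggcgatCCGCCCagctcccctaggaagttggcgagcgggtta
Slc1a6: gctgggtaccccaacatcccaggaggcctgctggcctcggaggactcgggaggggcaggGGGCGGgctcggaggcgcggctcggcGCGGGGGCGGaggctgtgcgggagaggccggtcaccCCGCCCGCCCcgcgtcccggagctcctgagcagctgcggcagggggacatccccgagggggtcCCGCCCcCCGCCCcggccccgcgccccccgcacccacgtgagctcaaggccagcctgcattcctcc
In the printed windows, Slc17a7 held 3 matches to the GC box, Slc17a6 held 1 and Slc1a6 held 6. Another Slc17a6 window, at a RefSeq start 2.63 kb inside the annotated gene, held 0 and is not printed. Of 32851 RefSeq windows of this length, 32.7% held at least 1. Slc1a6 held the only match to the EGR1 motif among the 10 windows of the 8 genes with an entry, and 4.70% of all windows held one. No match to the cAMP response element TGACGTCA was found in any of the 10. The windows differed in CpG content: Slc1a1 held 27 CpG and Slc1a6 26, while Slc1a3 held 2 and Slc1a2 held 1, against a median of 6 over all windows. The Slc1a2 window belongs to a RefSeq start 47.8 kb inside the annotated gene and overlaps an annotated exon, and it is not printed. A match is a description of the letters and not a measured binding site.

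Among the vesicular transporters, the 2 main isoforms went in opposite directions. Slc17a7 (chromosome 7, 45163949 to 45176142, plus strand, mm10) stood at 365 and 367 TPM in the excitatory libraries and at 60.2 and 52.2 TPM in the inhibitory ones. Both excitatory libraries were thus far above both inhibitory ones and close to each other. The log2 fold change was 2.69 ± 0.11 (limma adjusted p = 0.00146). Its level in inhibitory nuclei was 15.4% of the excitatory level, beside the median of 18.0% for the excitatory forebrain markers. Cerebellar granule cell markers went the other way, 6 of 6 called higher in inhibitory nuclei. Their summed level was 109 and 99.8 TPM in excitatory and 230 and 213 TPM in inhibitory libraries. The part of forebrain or granule cell nuclei in the Slc17a7 values was not tested. The microRNA gene Mir7055 lies inside Slc17a7 on the same strand, so strand cannot separate their reads. Mir7055 stood at 4.90 and 2.63 TPM in excitatory and 0.783 and 0.478 TPM in inhibitory libraries.

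Slc17a6 (chromosome 7, 51622006 to 51671119, plus strand) showed the reverse order, with 22.4 and 20.3 TPM in excitatory and 88.0 and 78.4 TPM in inhibitory libraries. The groups did not overlap, and the inhibitory mean was 3.90-fold higher (log2 fold change -1.91 ± 0.13, limma adjusted p = 0.00176). The gene Gm45072 lies inside Slc17a6 on the same strand, so strand cannot separate their reads. Gm45072 stood at 1.26 and 1.16 TPM in excitatory and 5.43 and 5.22 TPM in inhibitory libraries. In the inhibitory libraries the level of Slc17a6 was above that of Slc32a1, the vesicular transporter of GABA, which stood at 51.7 and 39.0 TPM. Of the 6 thalamic markers, 5 were called higher in inhibitory nuclei, and the summed level of all 6 was 93.0 and 80.4 TPM in excitatory and 226 and 308 TPM in inhibitory libraries. Rora, a nuclear receptor gene, made up most of the excitatory sum and was not called, at 66.2 and 54.7 against 82.9 and 118 TPM (adjusted p = 0.0675). Tcf7l2, a Wnt pathway factor of thalamic neurons, stood at 3.32 and 3.02 against 21.6 and 25.5 TPM, and Synpo2 at 0.939 and 1.36 against 11.9 and 11.3 TPM. The part of thalamic or other nuclei from outside the forebrain in the Slc17a6 difference was not tested.

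Slc17a8 (chromosome 10, 89574020 to 89621253, minus strand) was the lowest of the 9 genes in every library, at 1.57 and 1.71 TPM in excitatory and 2.59 and 4.08 TPM in inhibitory nuclei. Both inhibitory libraries stood above both excitatory ones, but the difference was not called (log2 fold change -0.69 ± 0.31, adjusted p = 0.217), and its 95% limits ran from -1.46 to 0.07. The size of the difference rested on inhibitory replicate 2: without that library the log2 fold change was -0.44, and without inhibitory replicate 1 it was -0.94. Markers of serotonergic neurons, a population known to use Slc17a8, were likewise low, with a summed level of 1.57 and 2.42 TPM in excitatory and 11.4 and 9.40 TPM in inhibitory libraries. Of the 3 tested, 2 were called higher in inhibitory nuclei. Markers of cholinergic neurons were low as well, with 3 of 3 called higher in inhibitory nuclei. Their summed level was 0.939 and 0.706 TPM in excitatory and 12.8 and 12.8 TPM in inhibitory libraries. The part of either population in the Slc17a8 values was not tested.

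TPM is per length, so the 3 vesicular transporters can be set side by side within a library. Such a comparison depends on the transcript lengths used, and the annotation behind them is unknown here. Their sum was 389.1 and 389.2 TPM in the excitatory libraries and 151 and 135 TPM in the inhibitory ones, a 2.73-fold difference. Slc17a7 made up 93.8% and 94.3% of that sum in excitatory nuclei and 39.9% and 38.8% in inhibitory nuclei. Slc17a6 made up 5.76% and 5.21% in excitatory nuclei and 58.3% and 58.2% in inhibitory nuclei, and therefore had the highest TPM of the 3 there. Slc17a8 took 0.403% and 0.440% against 1.72% and 3.03%, and the difference of -1.95 percentage points became -1.29 without inhibitory replicate 2. The groups did not overlap for any of the 3 shares, and the exact two-sided permutation test over 2 against 2 libraries gave p = 0.333, the smallest this design allows. Put as a ratio, Slc17a7 exceeded Slc17a6 16.3-fold and 18.1-fold in the excitatory libraries and stood at 0.685 and 0.666 of it in the inhibitory ones.

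**Figure D3:**
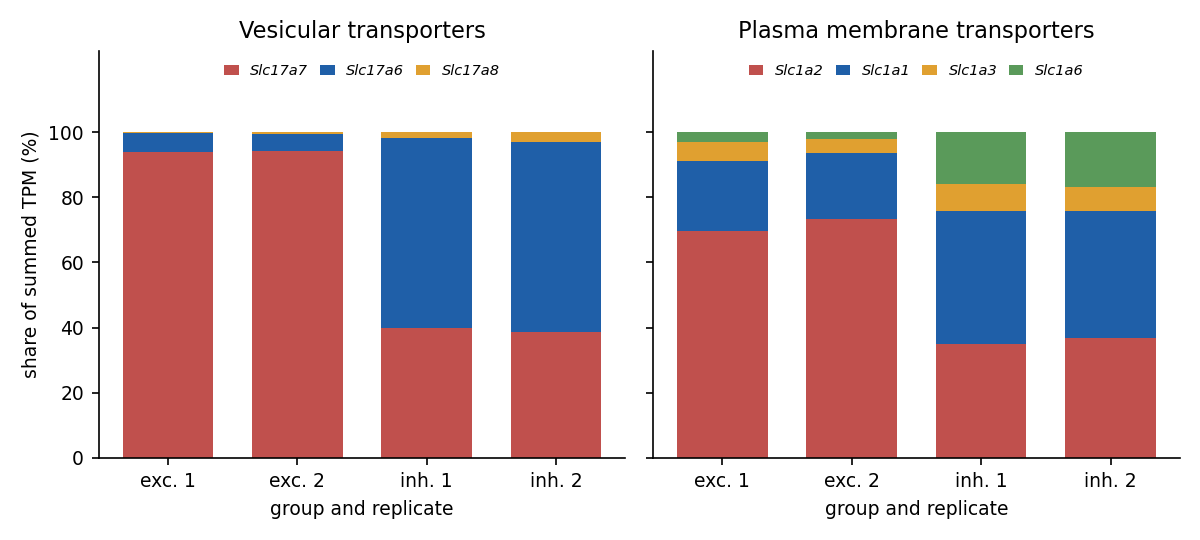
Share (%) of each gene in the summed TPM of the vesicular (left) and plasma membrane (right) transporters in each library, with exc. and inh. for excitatory and inhibitory and the replicate number. Slc17a7 filled about 94% of the vesicular sum in excitatory libraries and under 40% in inhibitory ones, where Slc17a6 took 58%.

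Slc1a2 (GLT-1), the main glutamate transporter of forebrain astrocytes, stood at 359 and 430 TPM in excitatory and at 85.1 and 88.8 TPM in inhibitory libraries. The excitatory libraries were 4.54-fold higher on average, with no overlap (log2 fold change 2.16 ± 0.12, limma adjusted p = 0.00154). With Slc17a7 it was the most abundant of the 9 genes in excitatory nuclei, and the order of these genes there was not the same in both libraries. Log2 fold changes of the astrocyte markers ran from -0.75 to 1.03. Of 11 astrocyte markers, 1 was higher in excitatory nuclei (Ntsr2, 1.03), 1 was higher in inhibitory nuclei (Slc4a4, -0.75) and 9 were not called, with a median log2 fold change of 0.37. All 11 markers summed to 213 and 192.5 TPM in excitatory and 266 and 207 TPM in inhibitory nuclei, where the groups overlapped and the inhibitory mean was 1.17-fold higher (exact permutation p = 0.667). Slc4a4 alone made up most of the summed level in inhibitory libraries. Without it, a choice made after its values were seen, the other 10 markers lay between 0.974 and 35.1 TPM and summed to 109 and 96.2 TPM in excitatory and 74.7 and 57.3 TPM in inhibitory nuclei, 1.55-fold higher in excitatory ones, so the direction of the sum turned with this choice. Defining astrocyte genes were low but not absent: the water channel gene Aqp4 stood at 7.41 and 5.19 against 5.31 and 4.17 TPM, and Gfap at 7.01 and 5.92 against 5.75 and 4.62 TPM. The ratio of Slc1a2 to the sum of all 11 markers was 1.69 and 2.23 in excitatory and 0.319 and 0.429 in inhibitory libraries. Its ratio to the sum of the 10 markers was 3.31 and 4.47 in excitatory and 1.14 and 1.55 in inhibitory libraries. The groups thus overlapped in neither ratio (each exact permutation p = 0.333, the smallest possible). The part of astrocyte or of neuronal RNA in the Slc1a2 difference was not tested.

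Slc1a2 spans 132 kb (chromosome 2, 102658659 to 102790784, plus strand), and the noncoding gene Gm13872 lies inside it on the opposite strand. Gm13872 stood at 53.1 and 65.3 TPM in excitatory and at 6.87 and 7.25 TPM in inhibitory libraries, an 8.39-fold difference in the direction of Slc1a2 (log2 fold change 2.89 ± 0.17, limma adjusted p = 0.00156). The library kit marks strand, but whether the counting used strand is unknown here, so reads of the overlapping pair cannot be told apart and both values are uncertain to that extent.

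Slc1a3 (GLAST), the glutamate transporter of astrocytes and Bergmann glia, stood at 29.8 and 24.9 TPM in excitatory and 20.3 and 18.0 TPM in inhibitory nuclei. The groups did not overlap, but the gene was not called (log2 fold change 0.49 ± 0.16, adjusted p = 0.110). Its ratio to all 11 astrocyte markers was 0.140 and 0.130 in excitatory and 0.0762 and 0.0871 in inhibitory libraries, with no overlap (exact permutation p = 0.333, the smallest possible). Without Slc4a4, its ratio to the other 10 was 0.275 and 0.259 in excitatory and 0.272 and 0.315 in inhibitory libraries, and the groups overlapped (exact permutation p = 0.667), so whether they overlap depends on that 1 marker. The ratio of Slc1a2 to Slc1a3 differed between the groups. Slc1a2 exceeded Slc1a3 12.0-fold and 17.2-fold in excitatory libraries and 4.19-fold and 4.93-fold in inhibitory ones. The gene Gm37310 lies inside Slc1a3 on the same strand, so strand cannot separate their reads. Gm37310 stood at 3.38 and 3.37 TPM in excitatory and 2.48 and 2.48 TPM in inhibitory libraries.

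**Figure D4:**
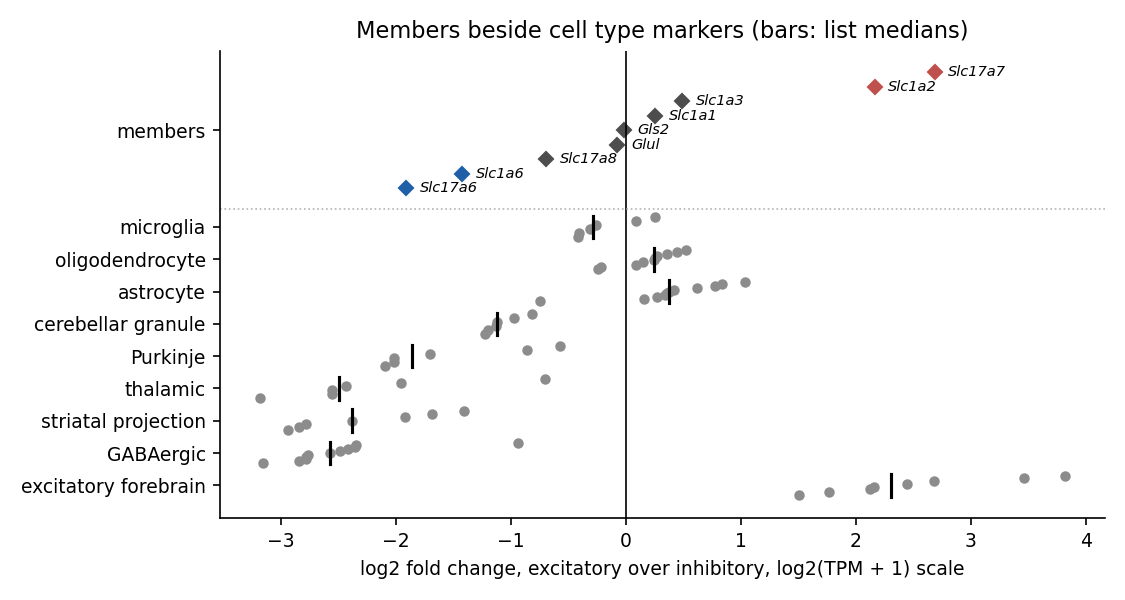
Log2 fold change, excitatory over inhibitory, of the 9 genes (diamonds, red where called higher in excitatory, blue where called higher in inhibitory and dark grey where not called) and of the tested markers of 9 cell types (grey points, with a black bar at each list's median). Slc1a2 lies at 2.16, to the right of every astrocyte marker and within the span of the excitatory forebrain markers.

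Slc1a1 (EAAC1), the plasma membrane transporter of neurons, varied least between the groups among the 4 Slc1a genes. It stood at 112 and 119 TPM in excitatory and 99.1 and 93.4 TPM in inhibitory libraries. The excitatory libraries were slightly higher without overlap, and the difference was not called (log2 fold change 0.26 ± 0.10, adjusted p = 0.160), with 95% limits of 0.01 to 0.50. In inhibitory nuclei Slc1a1 had the highest mean of the 9 genes, 96.2 TPM, though Slc1a2 (86.9 TPM) and Slc17a6 (83.2 TPM) followed closely and Glul spread across all 3. The gene 4430402I18Rik overlaps the 3′ part of Slc1a1 on the opposite strand and stood at 9.59 and 7.43 against 3.62 and 5.61 TPM. Gm5822 lies inside Slc1a1 on the opposite strand and stood at 7.19 and 10.3 against 7.96 and 7.03 TPM.

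Slc1a6 (EAAT4), the transporter of Purkinje cell dendrites, was higher in inhibitory nuclei. It stood at 15.6 and 12.7 TPM in excitatory and 38.5 and 40.6 TPM in inhibitory libraries, a 2.80-fold difference without overlap (log2 fold change -1.43 ± 0.16, limma adjusted p = 0.00528). Purkinje markers moved in the same direction, 6 of 6 called, from a summed level of 379 and 403 TPM to 792 and 858 TPM. Car8, a carbonic anhydrase-related gene of Purkinje cells, stood at 10.6 and 9.44 against 45.2 and 41.8 TPM. The excitatory level of Slc1a6 was 35.7% of its inhibitory level, inside the range of the Purkinje markers (18.3% to 67.0%). It was also inside the ranges of GABA neuron (8.97% to 52.7%), striatal projection neuron (10.5% to 37.3%) and thalamic markers (7.48% to 60.2%). It was outside that of the cerebellar granule cell markers (41.2% to 55.3%). The ratio of Slc1a6 to the summed Purkinje markers was 0.0411 and 0.0314 in excitatory and 0.0486 and 0.0473 in inhibitory libraries. The groups did not overlap in this ratio (exact permutation p = 0.333, the smallest possible). The part of Purkinje nuclei in the Slc1a6 difference was not tested.

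The summed level of the 4 plasma membrane transporters was 516 and 586 TPM in excitatory and 243 and 241 TPM in inhibitory libraries. Slc1a2 took 69.6% and 73.3% of it in excitatory and 35.0% and 36.9% in inhibitory nuclei. Slc1a1 took 21.6% and 20.2% against 40.8% and 38.8%, and Slc1a6 took 3.02% and 2.16% against 15.9% and 16.9%. Without Slc1a2 the other 3 summed to 157 and 156 TPM in excitatory and 158 and 152 TPM in inhibitory libraries, which overlapped (exact permutation p = 1). The higher Slc1a1 and Slc1a3 levels in excitatory nuclei and the higher Slc1a6 level in inhibitory nuclei thus added up to nearly the same sum, and the difference in the total lay in Slc1a2.

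Neither enzyme gene among the 9 showed a called difference. Gls2, the liver-type glutaminase, stood at 44.8 and 52.6 TPM in excitatory and 47.4 and 51.2 TPM in inhibitory libraries, with overlapping groups (log2 fold change -0.02 ± 0.13, adjusted p = 0.942, 95% limits -0.34 to 0.29). It overlaps Spryd4 by 97 bases on the opposite strand, a gene between 7.18 and 9.40 TPM in the 4 libraries.

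Glul, which encodes glutamine synthetase and is known from astrocytes and oligodendrocytes, stood at 100.2 and 64.9 TPM in excitatory and at 106 and 68.5 TPM in inhibitory libraries. Both libraries numbered replicate 1 were high and both numbered replicate 2 were low, 1.54-fold apart in each group, while the groups overlapped (log2 fold change -0.08 ± 0.27, adjusted p = 0.894, 95% limits -0.73 to 0.58). Summed oligodendrocyte markers differed in the same direction, 1.23-fold between the excitatory and 1.37-fold between the inhibitory replicates, as did summed astrocyte markers, 1.11-fold and 1.29-fold. Summed markers of microglia did so too, 1.09-fold and 1.23-fold, so this direction was not limited to the cell types named for Glul. The part of glial RNA in the Glul values was not tested. The ratio of Glul to the oligodendrocyte sum was 0.231 and 0.184 in excitatory and 0.280 and 0.250 in inhibitory libraries. Its ratio to the sum of all astrocyte markers was 0.470 and 0.337 against 0.396 and 0.331, with overlapping groups. Without Slc4a4 that ratio was 0.922 and 0.675 against 1.41 and 1.19, without overlap. Teddm2, which overlaps the first 285 bases of Glul on the opposite strand, stood at 11.7 and 15.6 against 4.24 and 3.77 TPM. The microRNA gene Mir8114 overlaps Glul by 93 bases on the same strand and did not pass the filter.

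Beyond the 9 genes, 30 further genes of glutamate and glutamine metabolism and transport were examined, of which 29 were found by symbol and 26 passed the filter. None was called higher in excitatory nuclei and 4 were called higher in inhibitory nuclei, against 5.43% and 6.62% of all genes tested (limma). At an unadjusted limma p under 0.05 there were 2 and 8. Called or not, 8 of the 26 had a positive log2 fold change and 18 a negative one. The median log2 fold change was -0.19. Slc25a13 (citrin), a mitochondrial aspartate and glutamate carrier, had the largest change, with 3.45 and 3.15 TPM in excitatory against 17.1 and 16.8 TPM in inhibitory libraries (log2 fold change -2.06 ± 0.22, limma adjusted p = 0.00464). Its partner carrier Slc25a12 was more abundant in both groups, at 89.0 and 95.9 against 116 and 114 TPM, and was not called (adjusted p = 0.102).

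Bcat1, the cytosolic branched-chain aminotransferase, stood at 19.7 and 16.9 TPM in excitatory against 34.0 and 33.3 TPM in inhibitory nuclei (log2 fold change -0.85 ± 0.15, adjusted p = 0.0185). Slc38a1, a neuronal glutamine transporter, stood at 74.7 and 82.4 against 120 and 122 TPM (log2 fold change -0.61 ± 0.10, adjusted p = 0.0173). Glud1, glutamate dehydrogenase, stood at 57.5 and 46.2 against 83.4 and 78.8 TPM (log2 fold change -0.64 ± 0.14, adjusted p = 0.0342). The Glud1 call was lost under median ratio scaling (adjusted p = 0.0694), quantile normalization (0.0547), rescaling without mitochondrial and top genes (0.0525), no filter (0.0850) and no variance trend (0.110), and the Slc38a1 call was lost with no variance trend (0.0846). With any 1 library left out, 0 of the 4 calls remained with the same genes tested. Slc38a3, the glutamine exporter of astrocytes, went the other way without being called, at 13.0 and 10.8 against 5.50 and 6.96 TPM (adjusted p = 0.0721).

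**Figure D5:**
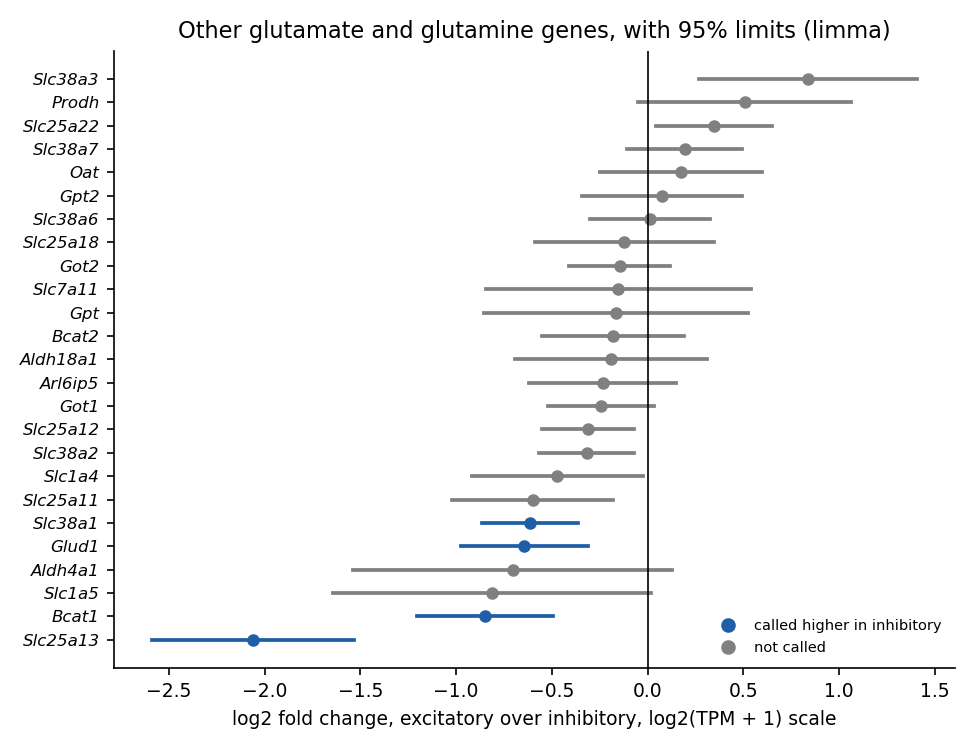
Log2 fold change, excitatory over inhibitory, of the further glutamate and glutamine genes that passed the filter, except 1 that is not reported here (mean log2(TPM + 1) values subtracted), with unadjusted 95% limits from limma. The 4 called genes (blue) all lie to the left, with Slc25a13 at -2.06.

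The genes whose pattern over the 4 libraries was most like that of a called member were found by the Euclidean distance between log2(TPM + 1) values centred on each gene's mean, among 12271 other genes with a mean of at least 5 TPM. With only 4 libraries this is a description of like levels and carries no test. Genes near a member have a like log2 fold change by construction, so their place on a marker list is no separate support. Nearest to Slc17a7 were Dkk3 (distance 0.103), Fhl2 and Itga8, with mean levels of 87.5, 55.0 and 50.0 TPM in excitatory against 12.5, 8.18 and 7.19 TPM in inhibitory nuclei. Nearest to Slc1a2 were Tafa1 (0.0366), Neurod2 (0.0608) and Slc30a3 (0.113), of which the last 2 are on the list of excitatory forebrain markers. Neurod2, a transcription factor of excitatory neurons, stood at 40.4 and 47.2 against 9.06 and 8.96 TPM, and Slc30a3, the zinc transporter of synaptic vesicles, at 83.2 and 92.5 against 18.3 and 20.6 TPM. Nearest to Slc17a6 were Map3k1 (0.109), the Purkinje marker Car8 (0.110) and Zfp521 (0.116). Nearest to Slc1a6 were Rgs10 (0.0683), Ahnak2 (0.0891) and Mcf2 (0.0938), with mean levels of 26.1, 13.3 and 14.4 TPM in inhibitory nuclei.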

How the data were processed

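RNA from sorted nuclei was depleted of ribosomal RNA and made into directional libraries, per the labels' protocols. The authors deposited TPM values, 1 column per library. StringTie 2.2.1, HISAT2 2.2.1, Bowtie2 2.3.5, fastp 0.23.4 and the build mm10 are listed, per the submitters' processing notes; the sources used here give neither their order nor the annotation or use of strand. TPM keeps no depth, so depth is unknown and no counting interval was computed. Sample titles gave the groups and replicate numbers. Libraries of a group correlated at Pearson r = 0.967 and 0.968 across 26055 genes and were not copies of each other.

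Values were taken as log2(TPM + 1) for genes reaching 1 TPM in 2 or more libraries and compared by limma 3.58.1 in R 4.3.3 with its prior variance following the mean level (residual degrees of freedom 2, prior 4.04), two-sided, with Benjamini-Hochberg adjustment. The fit was also run on simulated data, with no outcome given here, so that run lends no support to the calls. Shares of summed TPM were compared by exact permutation tests. Gene positions came from GENCODE M21 and start regions from RefSeq. Alternatives were other pseudocounts, filters and scalings, no variance trend, a replicate block and each library left out. The members and lists were chosen with earlier results of these data known. Named were all 9 members, called genes of the further list with Slc38a3, up to 4 markers of a cell type beside a result, and the 3 genes nearest in pattern to 4 members; Slc25a12, Slc32a1, Ntsr2, Slc4a4, Rora and Camk2a were named after their values were seen, and overlapping genes by position. Some genes of the rule are not reported here. Figures were drawn with matplotlib 3.10.9.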

Additional observations from a re-analysis of the deposited data

How the results depend on the processing

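The directions and calls of Slc17a6, Slc17a7, Slc1a2 and Slc1a6 held in each of the 9 alternatives that kept all libraries, with log2 fold changes of -1.96 to -1.84, 2.66 to 2.76, 2.13 to 2.24 and -1.48 to -1.35. Gls2 turned to 0.053 under median ratio scaling. Slc17a8 gave no value with a filter of at least 5 TPM. Without the filter, calls over all genes numbered 666 toward excitatory and 740 toward inhibitory nuclei, against 1414 and 1725, and 2 of the further glutamate genes were called with no variance trend, against 4. With 1 library left out and the same genes tested, every count of calls was 0, for all genes, the 9 genes and the further list. An alternative added after seeing the data applied the filter again to the 3 libraries, which leaves 1 residual degree of freedom as well: 604 to 1039 genes were then called toward excitatory and 800 to 1085 toward inhibitory nuclei, with 2 and 2 of the 9 genes and 0 and 1 to 3 of the further list. The prior degrees of freedom were 2.86 to 3.29 with the same genes and 5.30 to 7.39 with the filter applied again, so calls in these fits turn on the prior and lend no separate support. Leaving out 1 library gave log2 fold changes of -0.134 to 0.092 for Gls2, -0.385 to 0.233 for Glul and -0.94 to -0.44 for Slc17a8. The differences in share, excitatory minus inhibitory, then ran from -53.1 to -52.5 percentage points for Slc17a6, 54.2 to 55.3 for Slc17a7, -2.61 to -1.29 for Slc17a8 and 33.6 to 37.4 for Slc1a2. Replicate numbers are shared between the groups, but the labels give no pairing. The correlation of replicate differences across genes was 0.0957, and a fit with the replicate number as a block called 4328 genes in place of 3139, with the same 2 and 2 of the 9 genes and 5 of the further list. Depth is unknown and limits low genes such as Slc17a8 to an extent that cannot be computed.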
